A study of Mus musculus with 2 samples.

Results

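The genes of glycolysis, pyruvate and lactate handling were examined in oligodendrocyte-lineage cells of the mouse optic nerve, with and without optic nerve crush (ONC), by scRNA-seq. They are 31 genes, taken from a list of names that was written with earlier results of these data known. All 31 were found among the 31053 genes in the files. The 31 comprise 2 hexokinases, 9 genes of upper glycolysis and its control, 6 of lower glycolysis, 2 lactate dehydrogenase subunits, 5 carriers, and 7 genes of the pyruvate dehydrogenase complex and the kinases that act on it. The mice were 129S1/SvlmJ animals of both sexes, crushed at 8 weeks and taken at 10 weeks, which is 2 weeks after ONC. Their age is labelled as 56 days. The injured library was made from 5 pooled nerves after ONC and the uninjured library from 5 pooled nerves without ONC, and the labels name no other allele or agent for either. The authors assigned each barcode a type, namely oligodendrocyte progenitor cell (OPC), newly formed oligodendrocyte (NFO) or oligodendrocyte.

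Each condition has 1 library, so no difference below has a replicate check and no p-value is given. Levels are CPM, the counts per 1000000, of the unique molecular identifiers (UMIs, 1 per captured transcript) summed over the barcodes of a type. Intervals cover counting error only. A member was compared when its 2 groups held at least 50 UMIs together, and it was called when the CPM differed more than 2-fold. Reads come from the 3' end of transcripts, so levels are compared for 1 gene across classes and not between genes.

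The uninjured library held 959 barcodes and 4414834 UMIs and the injured library 410 barcodes and 2771797 UMIs, with 0 barcodes shared. Oligodendrocytes numbered 857 uninjured and 293 injured, NFOs 44 and 100, and OPCs 58 and 17. Depth was uneven. The median oligodendrocyte had 3060 UMIs in the uninjured and 1268 in the injured library, and the deepest injured barcode had 58568. Malat1, a nuclear RNA, made up under 0.5% of the UMIs of 5.6% of uninjured and 45.4% of injured oligodendrocytes, of 63.6% and 77% of NFOs, and of 0% and 29.4% of OPCs (Malat1-poor barcodes). UMIs of 12 macrophage and microglia markers were at 26.5 CPM in uninjured and 337 CPM in injured oligodendrocytes, 21.3 and 813 CPM in NFOs, and 35 and 289 CPM in OPCs. In injured oligodendrocytes and NFOs all 12 of these markers had a UMI. In uninjured oligodendrocytes 1 (Spp1) was at 0, and in uninjured NFOs 10 were at 0. Among the defining markers of the types, 9 oligodendrocyte markers summed to 64778 and 61464 CPM in oligodendrocytes against 2457 and 1020 CPM in OPCs, 6 OPC markers to 10232 and 10289 CPM in OPCs against 545 and 632 CPM in oligodendrocytes, and 6 NFO markers to 4940 and 7495 CPM in NFOs against 1145 and 1051 CPM in oligodendrocytes. NFOs also held the markers of the neighboring types. The oligodendrocyte markers, at 10231 and 16922 CPM, exceeded the NFO markers in both libraries, and the OPC markers were at 3931 CPM in uninjured and 2328 CPM in injured NFOs. In the Malat1-poor uninjured NFOs the OPC markers, at 6917 CPM, exceeded the NFO markers, at 2174 CPM.

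Glycolysis turns glucose into pyruvate in the cytosol. Pyruvate then either enters mitochondria through the carrier of Mpc1 and Mpc2 and is oxidized by the pyruvate dehydrogenase complex, or is reduced to lactate by lactate dehydrogenase. Mature oligodendrocytes take up glucose through GLUT1 (Slc2a1) and can pass lactate through the monocarboxylate transporter MCT1 (Slc16a1) to the axons they wrap, which is the known route of their metabolic support of axons. Lactate dehydrogenase is a tetramer of A (Ldha) and B (Ldhb) subunits. Tetramers rich in A favor reduction of pyruvate to lactate, and tetramers rich in B favor oxidation of lactate to pyruvate.

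Promoters are shown for the lactate dehydrogenase pair and, as examples of members past 2-fold in oligodendrocytes, for Slc2a1 and the pyruvate dehydrogenase kinase Pdk4, which were lower in the injured library, and Pfkfb3, which was higher. The stretches are RefSeq sequence on GRCm38.p6, read 5′ to 3′ on the gene's strand, and end before the first base of an annotated exon. Ldhb lies on the minus strand (chr6:142490249-142507957 for the gene, chr6:142507958-142508207 for the stretch), and Ldha on the plus strand (chr7:46841475-46855627 for the gene, chr7:46845554-46845803 for the stretch, which precedes 1 of its 2 RefSeq starts and lies inside the gene's full span). Slc2a1 is on the plus strand (gene chr4:119108711-119137983, stretch chr4:119108495-119108710) and Pdk4 on the minus strand (gene chr6:5483351-5496309, stretch chr6:5496310-5496528). The Pfkfb3 stretch is chr2:11554078-11554179, on the minus strand. Capitals mark ACGTG or GCGTG on either strand, the letters at the core of hypoxia response elements.
Ldhb: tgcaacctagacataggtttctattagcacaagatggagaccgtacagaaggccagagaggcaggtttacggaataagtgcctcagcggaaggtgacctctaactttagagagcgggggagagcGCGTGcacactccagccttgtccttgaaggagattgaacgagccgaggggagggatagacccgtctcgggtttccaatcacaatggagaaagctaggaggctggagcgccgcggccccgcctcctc
Ldha: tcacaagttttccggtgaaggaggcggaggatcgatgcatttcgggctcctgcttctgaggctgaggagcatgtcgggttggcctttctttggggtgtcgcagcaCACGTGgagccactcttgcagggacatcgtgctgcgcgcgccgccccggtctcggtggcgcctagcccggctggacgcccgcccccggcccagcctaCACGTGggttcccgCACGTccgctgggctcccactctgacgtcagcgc
Slc2a1: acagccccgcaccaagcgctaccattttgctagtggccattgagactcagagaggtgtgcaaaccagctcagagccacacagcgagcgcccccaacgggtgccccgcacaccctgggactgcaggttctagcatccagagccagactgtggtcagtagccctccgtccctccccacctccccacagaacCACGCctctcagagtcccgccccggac
Pdk4: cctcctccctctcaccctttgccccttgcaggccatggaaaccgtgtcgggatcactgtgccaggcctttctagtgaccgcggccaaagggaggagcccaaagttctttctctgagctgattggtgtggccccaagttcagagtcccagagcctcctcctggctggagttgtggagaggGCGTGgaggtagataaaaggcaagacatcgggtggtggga
Pfkfb3: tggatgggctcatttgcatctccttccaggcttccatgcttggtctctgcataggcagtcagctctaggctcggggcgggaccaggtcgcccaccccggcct
The Ldha stretch holds 5 matches of ACGTG, and 2 palindromes CACGTG, each read on both strands, give 4 of them. The Ldhb, Slc2a1 and Pdk4 stretches hold 1 match of GCGTG each and 0 of ACGTG, and the Pfkfb3 stretch of 102 bases holds 0 of either. The stretches run from 102 to 250 bases, so their numbers of matches are not compared. The full windows of 300 bases, which run on into exons, hold 1 match of ACGTG for Pfkfb3 and 1 for Slc2a1. Pfkfb3 has 2 such windows, and 2 hold either motif. Over 32851 RefSeq promoter windows of 300 bases, 19.6% held ACGTG, 32.4% held GCGTG and 43.8% held either. All 31 members had a window, and 26 of them had either motif in at least 1 of theirs. By window, 36 of the 48 windows of the members held either motif. A match of letters is a description and not a binding site.

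Which of these genes differ between the barcodes typed oligodendrocyte in the injured and the uninjured nerve was examined first. The paper also describes small spidery oligodendrocytes, not yet fully mature, that emerged after injury, and the types used here do not separate them. Ldhb, Slc2a1, Pfkfb2 and Pdk1, Pdk2 and Pdk4, 3 of the pyruvate dehydrogenase kinases, were lower in the injured library, and Pfkfb3 and Eno2 were higher. The other members compared were within 2-fold over all barcodes. Of the 31 members, 26 were compared, 2 were higher, 6 were lower and 18 were within 2-fold. Among all 8591 genes compared in oligodendrocytes, 5.98% were higher and 4.06% lower by more than 2-fold, and 10.0% in either direction. The median log2 ratio was -0.13 over the members and 0.05 over all genes. The 5 members with too few UMIs were Hk2, Pfkm, Pfkp, Aldoc and Slc16a3.

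**Figure D1:**
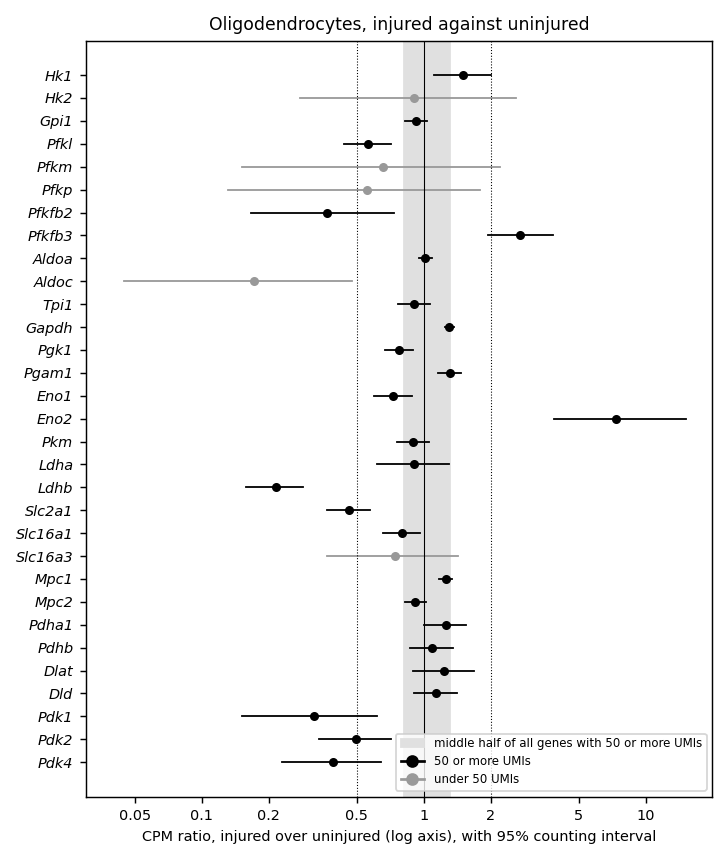
CPM ratio of injured over uninjured oligodendrocytes (log axis) for the 31 genes in the order of the pathway, with 95% counting intervals, gray where the 2 groups held under 50 UMIs together. Dotted lines mark 2-fold, and Ldhb (0.215) and Eno2 (7.36) lie farthest from 1 among the genes in black.

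Ldhb had the lowest ratio of the 26 members compared in oligodendrocytes. Its level was 107 CPM (444 UMIs) in uninjured and 23.0 CPM (53 UMIs) in injured oligodendrocytes, a ratio of 0.215 (interval 0.159 to 0.287). Ldha was at 22.2 CPM (92 UMIs) in uninjured and 19.98 CPM (46 UMIs) in injured oligodendrocytes, a ratio of 0.901 whose interval of 0.618 to 1.297 includes 1. The B subunit thus made up 82.8% (79.4 to 85.9) of the lactate dehydrogenase UMIs in uninjured and 53.5% (43.2 to 63.6) in injured oligodendrocytes. Its log2 ratio of -2.22 became -0.65 when CPM were averaged over barcodes and -0.12 when each barcode was thinned to 500 UMIs.

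Among the carriers, Slc2a1 was at 100 CPM (416 UMIs) in uninjured and 46.0 CPM (106 UMIs) in injured oligodendrocytes, a ratio of 0.459 (0.368 to 0.570). Slc16a1 (chr3:104638668-104658462, plus strand), the lactate exporter, was at 86.3 CPM (358 UMIs) and 68.6 CPM (158 UMIs), a ratio of 0.795 (0.655 to 0.962), so its interval lies below 1 but it did not reach the 2-fold threshold. Slc16a3, which encodes the transporter MCT4, was found in 34 uninjured and 14 injured UMIs, and its share of the Slc16a1 and Slc16a3 UMIs was 8.67% (6.08 to 11.9) and 8.14% (4.52 to 13.3). The mitochondrial pyruvate carrier genes were within 2-fold, with Mpc1 at 517 and 648 CPM (ratio 1.25, 1.17 to 1.34) and Mpc2 at 229 and 209 CPM (0.916, 0.820 to 1.02). Of the 4 carriers compared, Slc2a1 was the one past 2-fold.

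The pyruvate dehydrogenase kinases phosphorylate the complex and switch it off. The 3 among the members were lower in injured oligodendrocytes. Pdk1 (chr2:71873224-71903858, plus strand) was at 14.9 CPM (62 UMIs) and 4.78 CPM (11 UMIs), a ratio of 0.320 (0.152 to 0.613). Pdk2 (chr11:95026258-95041354, minus strand) was at 34.2 CPM (142 UMIs) and 16.9 CPM (39 UMIs), a ratio of 0.495 (0.338 to 0.710) that lies just past the threshold. Pdk4 was at 22.2 CPM (92 UMIs) and 8.69 CPM (20 UMIs), a ratio of 0.392 (0.229 to 0.641). Pdk3, another gene of these kinases, which is not among the 31 and is named after its values were seen, was at 35.2 CPM (146 UMIs) and 47.3 CPM (109 UMIs), a ratio of 1.346 (1.04 to 1.74). The 4 genes of the complex itself, Pdha1 and Pdhb of the first enzyme, Dlat of the second and Dld of the third, were within 2-fold, with ratios between 1.09 (Pdhb) and 1.25 (Pdha1, 1.01 to 1.56).

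Pfkfb3 and Pfkfb2, which encode bifunctional enzymes that make and break down fructose 2,6-bisphosphate, the activator of phosphofructokinase, differed in direction over all barcodes. Pfkfb3 (chr2:11471433-11554077, minus strand), the form with the highest kinase relative to phosphatase activity, was at 14.7 CPM (61 UMIs) in uninjured and 40.0 CPM (92 UMIs) in injured oligodendrocytes, a ratio of 2.72 (1.95 to 3.82). Pfkfb2 (chr1:130689182-130729253, minus strand) was at 11.8 CPM (49 UMIs) and 4.34 CPM (10 UMIs), a ratio of 0.368 (0.166 to 0.735). The Pfkfb2 ratio was 0.562 (0.175 to 1.58) in barcodes of at least 8000 UMIs and 1.49 (0.380 to 4.29) in barcodes of 1000 to 8000 UMIs with at least 0.5% Malat1, and both intervals include 1. Phosphofructokinase transcripts were almost all Pfkl in oligodendrocytes, with 92.3% of the UMIs of Pfkl, Pfkm and Pfkp uninjured and 91.8% injured. Pfkl itself was at 69.2 and 38.7 CPM, a ratio of 0.559 (0.436 to 0.711).

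Enolase is another step at which isoenzymes differed in direction. Eno2 (chr6:124760053-124769673, minus strand), the enolase best known from neurons, was at 2.89 CPM (12 UMIs) in uninjured and 21.3 CPM (49 UMIs) in injured oligodendrocytes, a ratio of 7.36 (3.86 to 15.2). Eno1, the ubiquitous form, was at 85.8 and 62.5 CPM, a ratio of 0.729 (0.597 to 0.887). Eno2 made up 3.26% (1.70 to 5.63) of the enolase UMIs in uninjured and 25.4% (19.4 to 32.1) in injured oligodendrocytes. Eno1b, a near copy of Eno1, had 11 UMIs in all the data against 831 of Eno1, and how reads were divided between the copies is not known.

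The other glycolytic genes had narrower ranges in oligodendrocytes. Hk1, the main hexokinase, was at 25.6 and 38.2 CPM (ratio 1.496, 1.12 to 2.004), Gapdh at 1011 and 1317 CPM (1.302, 1.24 to 1.37) and Pgam1 at 154.5 and 202 CPM (1.31, 1.16 to 1.48), all 3 with intervals above 1. Pgk1, which makes the first ATP of the pathway, was at 149.9 and 116 CPM (0.774, 0.668 to 0.894). Aldoa (1.02), Gpi1 (0.924), Tpi1 (0.907) and Pkm (0.895) had intervals that include 1. Aldoc, the aldolase better known from astrocytes, had 42 uninjured and 4 injured UMIs and was under the minimum for a call. The 6 astrocyte markers summed to 142 CPM in uninjured and 68.6 CPM in injured oligodendrocytes, and their part in the Aldoc counts was not tested.

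**Figure D2:**
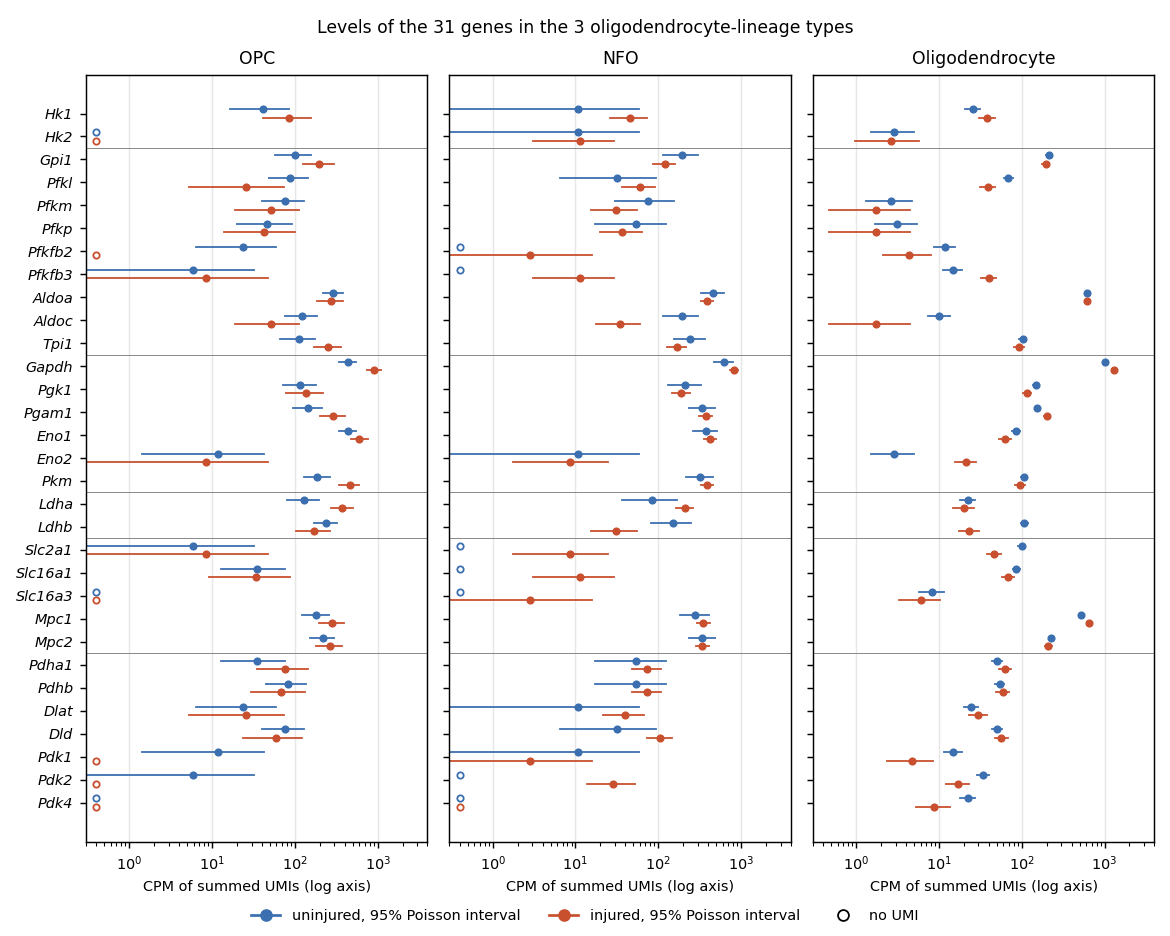
CPM of summed UMIs (log axis) of the 31 genes in uninjured and injured OPCs, NFOs and oligodendrocytes, with exact 95% Poisson intervals, horizontal lines between the roles, and open circles for classes with no UMI. Slc2a1 has at most 3 UMIs in any OPC or NFO class and 416 and 106 UMIs in oligodendrocytes.

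Depth and Malat1 content of the barcodes moved with injury, and the differences were therefore read within strata. The stratum of at least 8000 UMIs was not matched for depth, with a median of 11054 UMIs uninjured and 22473 UMIs injured. In barcodes of at least 8000 UMIs, of which there were 203 uninjured and 84 injured, the ratio was 0.153 (0.110 to 0.208) for Ldhb, 0.491 (0.387 to 0.619) for Slc2a1, 0.332 for Pdk1, 0.485 for Pdk2, 0.482 for Pdk4, 3.57 (2.32 to 5.65) for Pfkfb3 and 4.76 (2.42 to 10.2) for Eno2. Slc16a1 was at 78.8 and 69.0 CPM in these barcodes, and its ratio of 0.876 had an interval of 0.698 to 1.10. In barcodes with at least 0.5% Malat1 at any depth, the ratios were 0.207 for Ldhb, 0.474 for Slc2a1, 2.85 for Pfkfb3 and 7.35 for Eno2. In barcodes of 1000 to 8000 UMIs with at least 0.5% Malat1, Slc2a1 had 152 UMIs in the uninjured and 0 in the injured library. With a floor of 3 UMIs over the injured class it was 5.03-fold lower, and the interval of its ratio ran from 0 to 0.248. Pfkfb3 in that stratum rested on 30 and 6 UMIs, with a ratio of 2.01 (0.686 to 4.92). Members of the glycolytic chain also differed in that stratum, on few injured UMIs. Aldoa had 654 uninjured and 28 injured UMIs, a ratio of 0.431 (0.284 to 0.630), against 0.906 (0.843 to 0.973) in barcodes of at least 8000 UMIs. Pgk1 had 146 and 3 UMIs, a ratio of 0.207 (0.0422 to 0.617), and Eno1 had 87 and 2, a ratio of 0.232 (0.0276 to 0.862). Hk1 had 33 and 12 UMIs, a ratio of 3.66 (1.72 to 7.28). Mpc1 was at 0.570 (0.378 to 0.828), within 2-fold. Ldhb there had 66 and 1 UMIs, a ratio of 0.153 (0.00381 to 0.881), and Eno2 had 1 and 4 UMIs, a ratio of 40.3 (3.99 to 1985).

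The 67 injured oligodendrocytes of at least 16000 UMIs held 1804753 of the 2302349 UMIs of the injured class. Pfkfb3 was at 46.5 CPM (37.1 to 57.6) there and at 6.66 CPM (1.37 to 19.5) in the 21 uninjured barcodes of that depth. Between 4000 and 16000 UMIs it was at 15.3 CPM in the uninjured and 21.2 CPM (7.79 to 46.2) in the injured library, with overlapping intervals. On the mean of CPM over barcodes its log2 ratio was 0.16, against 1.44 on summed UMIs. Eno2 in that range was at 4.01 CPM (2.00 to 7.18) and 14.2 CPM (3.85 to 36.2), also with overlapping intervals. Between 1000 and 4000 UMIs Eno2 was at 0 CPM (0 to 4.36) in the uninjured and 16.2 CPM (1.96 to 58.5) in the injured library, the latter on 2 UMIs. Ldhb and Slc2a1 were lower in the injured library between 4000 and 16000 UMIs and above. Ldhb was at 87.1 and 35.4 CPM between 4000 and 16000 UMIs and at 369 and 20.5 CPM above, while under 1000 UMIs it was at 36.5 CPM (9.94 to 93.4) and 54.7 CPM (17.8 to 128). Slc2a1 was at 107 and 46.0 CPM between and at 102 and 50.4 CPM above.

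**Figure D3:**
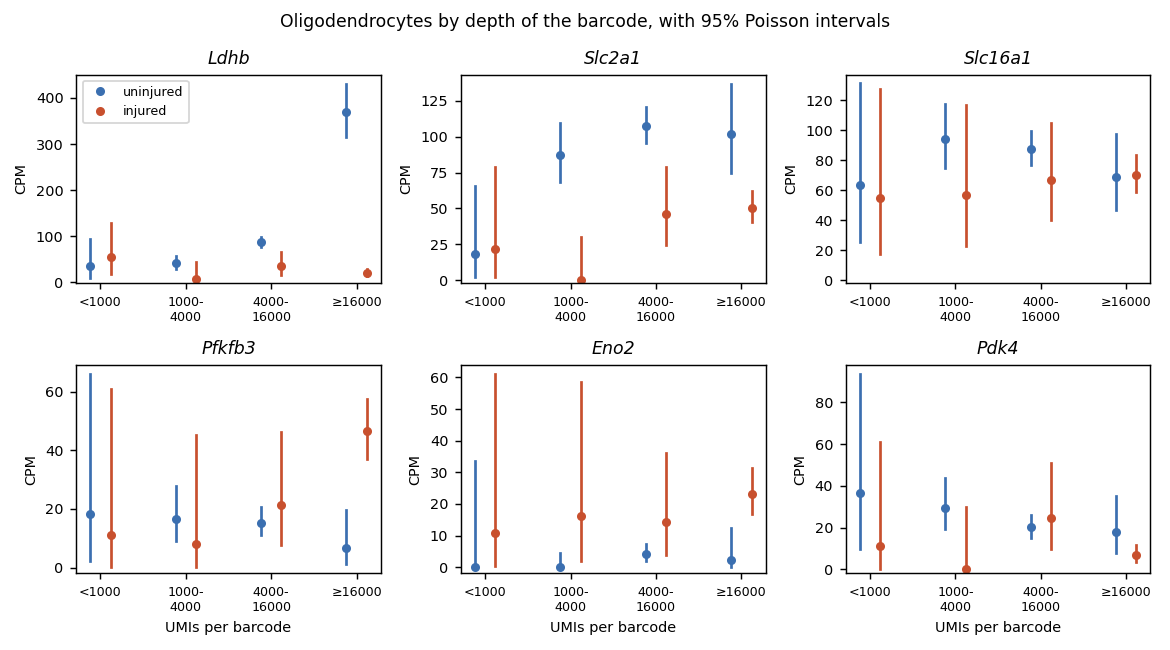
CPM of 6 genes in uninjured and injured oligodendrocytes by UMIs per barcode, with exact 95% Poisson intervals (21 to 364 barcodes a point). Ldhb reaches 369 CPM in the deepest uninjured barcodes, where Pfkfb3 is at 6.66 CPM against 46.5 CPM in the injured library.

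The macrophage markers were highest in the Malat1-poor injured oligodendrocytes (2630 CPM) and lower in the other injured oligodendrocytes (202 CPM), and at 24.6 and 104 CPM in uninjured and injured barcodes of at least 8000 UMIs. In barcodes with under 0.2% of UMIs from these markers, 204 injured ones among them, the count was the same as in all, with 2 members higher and 6 lower. The share of all genes in those barcodes is not given beside it.

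Ldhb was unevenly spread over oligodendrocytes of the uninjured nerve. Its 444 UMIs came from 132 of 857 barcodes, and 39 barcodes with at least 4 UMIs each held 70.7% of them. By contrast, barcodes with at least 4 UMIs held 11.3% of the Slc2a1 UMIs, 10.1% of those of Slc16a1 and 4.35% of those of Ldha. The Ldhb barcodes were described with 2 short lists known from mature oligodendrocyte populations, Klk6, Hopx and Anxa5 on the one hand and Ptgds and Il33 on the other. These lists were chosen after the genes that go with Ldhb had been seen, so the split is a description with no test. Barcodes with more UMIs of the first list (the Klk6 side) numbered 279 in the uninjured library, and barcodes with more of the second (the Ptgds side) 419. A further 140 had no UMI of either list and 19 had equal numbers, and 67 barcodes on each side lay within 1 UMI of the boundary.

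The 2 lactate dehydrogenase subunits ran in opposite directions across this split in the uninjured nerve. Ldhb was at 220 CPM (402 UMIs, 199 to 243) on the Klk6 side and at 16.4 CPM (34 UMIs, 11.4 to 22.9) on the Ptgds side, a ratio of 13.4 (9.45 to 19.7). Ldha was at 11.0 CPM (20 UMIs) on the Klk6 side and 32.8 CPM (68 UMIs) on the Ptgds side, a ratio of 0.334 (0.192 to 0.556). The B subunit accordingly made up 95.3% (92.8 to 97.1) of the lactate dehydrogenase UMIs on the Klk6 side and 33.3% (24.3 to 43.4) on the Ptgds side. The ratio of Ldhb was 16.1 (6.56 to 51.3) in barcodes of 1000 to 8000 UMIs and 13.1 (8.83 to 20.2) at 8000 UMIs or more, and that of Ldha was 0.217 and 0.396.

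Apart from Ldha, Ldhb and Pdk4, no member with at least 50 UMIs differed more than 2-fold between the sides in the uninjured library. The share of all genes past 2-fold between the sides was not computed, so the members past it are not read against one. Pdk4 was at 32.3 CPM on the Klk6 side and 13.0 CPM on the Ptgds side, a ratio of 2.48 (1.55 to 4.07). Slc2a1 had a ratio of 1.40 (1.15 to 1.71), Slc16a1 of 0.773 (0.619 to 0.964) and Pkm, which makes pyruvate, of 0.664 (0.537 to 0.819). The intervals of all 3 leave out 1.

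In the injured library the Klk6 side had 112 barcodes and the Ptgds side 115. Ldhb was at 35.5 CPM (38 UMIs) and 11.5 CPM (13 UMIs), and the ratio between the sides was 3.08 (1.61 to 6.31). From the uninjured to the injured library Ldhb went from 220 to 35.5 CPM on the Klk6 side, a ratio of 0.161 (0.112 to 0.225), and from 16.4 to 11.5 CPM on the Ptgds side, a ratio of 0.702 (0.340 to 1.36) on 47 UMIs. Slc2a1 was lower on both, with ratios of 0.369 (0.264 to 0.506) and 0.581 (0.424 to 0.787), and Pfkfb3 higher on both, with 2.81 (1.57 to 5.18) and 2.61 (1.69 to 4.06). The sides are not the same populations in the 2 libraries, because their own markers moved. On the Ptgds side Klk6 itself went from 166.5 CPM to 2437 CPM, and on the Klk6 side Il33 went from 15.9 to 922 CPM. The part of these marker changes in the lower Ldhb was not tested.

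**Figure D4:**
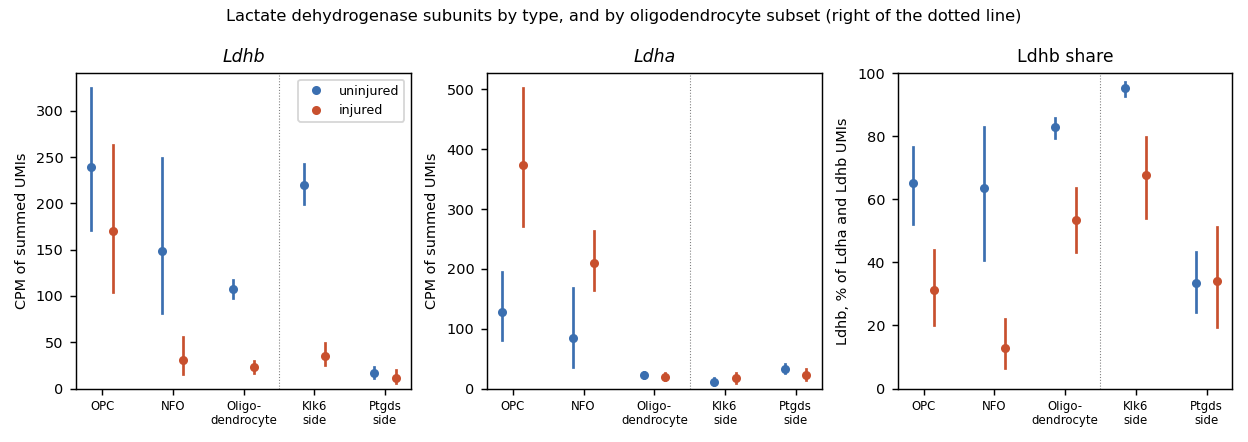
Ldhb and Ldha (CPM of summed UMIs) and Ldhb as a percent of the UMIs of both, in uninjured and injured OPCs, NFOs and oligodendrocytes and, right of the dotted line, in the Klk6 and Ptgds sides of the oligodendrocytes. Bars are exact 95% Poisson or binomial intervals, and the Ldhb share is 95.3% uninjured and 67.9% injured on the Klk6 side and 33.3% and 34.2% on the Ptgds side.

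NFOs were compared between the libraries next. Only Ldha was called, and it was higher in the injured library. It was at 85.0 CPM (8 UMIs) in uninjured and 210 CPM (74 UMIs) in injured NFOs, a ratio of 2.47 (1.19 to 5.94). Of the 31 members 11 had enough UMIs, 1 was higher, 0 were lower and 10 were within 2-fold, beside 13.3% higher and 4.01% lower, or 17.3% in either direction, of all 1695 genes. The median log2 ratio was 0.14 over the members and 0.20 over all genes. In NFOs with at least 0.5% Malat1, of which there were 16 and 23, Ldha was at 110 CPM (7 UMIs) and 158 CPM (36 UMIs), with overlapping intervals, and no member passed 2-fold there. In injured NFOs with less Malat1 it was at 308 CPM, and the macrophage markers were at 1823 CPM in these and 267 CPM in the others. The count was 1 in barcodes with under 0.2% of UMIs from the macrophage markers. The share of all genes in these subsets of NFOs is not given beside the counts.

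Ldhb in NFOs had 14 uninjured and 11 injured UMIs, at 149 and 31.3 CPM, too few for a call. Within the pair its share was 63.6% (40.7 to 82.8) in uninjured and 12.9% (6.64 to 22.0) in injured NFOs. Aldoc had 18 and 12 UMIs, at 191 and 34.1 CPM, and its share of the aldolase UMIs was 29.5% (18.5 to 42.6) and 8.11% (4.26 to 13.7). The genes of lower glycolysis compared in NFOs were within 2-fold, with ratios of 1.33 for Gapdh (1.002 to 1.80), 1.15 for Eno1 (0.789 to 1.71), 1.21 for Pkm (0.812 to 1.87), 1.10 for Pgam1 and 0.896 for Pgk1. Slc2a1, Slc16a1 and Pfkfb3 had 0 UMIs each in uninjured NFOs and 3, 4 and 4 UMIs in injured NFOs, so no difference was detectable at this depth.

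In OPCs, 9 members were compared and 3 were higher in the injured library. Ldha was at 128 CPM (22 UMIs) and 374 CPM (44 UMIs), a ratio of 2.91 (1.71 to 5.11). Pkm was at 187 and 459 CPM, a ratio of 2.46 (1.56 to 3.94), and Gapdh at 438 and 901 CPM, a ratio of 2.06 (1.52 to 2.81). Over all 993 genes 10.3% were higher, 6.45% lower and 16.7% either. The median log2 ratio was 0.63 over the members and 0.24 over all genes. The injured class is 17 barcodes, of which 29.4% were Malat1-poor against 0% of the uninjured class. In barcodes with at least 0.5% Malat1, 12 of them injured, 8 members were compared, 2 were higher and 1 was lower. The share of all genes in those barcodes is not given beside this count. In the whole injured class 5 barcodes held 38 of the 44 Ldha UMIs. Ldhb was at 239 and 170 CPM, with a ratio of 0.711 (0.395 to 1.24). Its share of the pair was 65.1% (52.0 to 76.7) in uninjured and 31.3% (20.2 to 44.1) in injured OPCs.

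Over all barcodes the Ldhb share was therefore lower in the injured library in each of the 3 types, and the intervals of the 2 libraries did not overlap in any. This did not hold in every subset. On the Ptgds side of the oligodendrocytes the share was not lower. In NFOs with at least 0.5% Malat1 it rested on 6 uninjured and 5 injured UMIs of Ldhb and on 7 and 36 of Ldha. In OPCs and NFOs Ldha was the called subunit and in oligodendrocytes Ldhb was. In NFOs Ldhb had too few UMIs for a call. Its ratio there was 0.210 (0.0864 to 0.498), beside 0.215 in oligodendrocytes. The types were not tested against each other for this difference.

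The stages were then compared within a library, NFOs against oligodendrocytes, where both share a preparation. In the uninjured nerve 25 members were compared, 6 were higher in NFOs and 5 lower, beside 17.7% higher and 16.0% lower, or 33.7% in either direction, of all 7651 genes. In the injured nerve 22 were compared, 3 were higher and 4 lower, beside 13.5% and 19.4%, or 32.8% in either direction, of 6563 genes. In the injured nerve the share of members called is near that of all genes. In barcodes with at least 0.5% Malat1 the members called numbered 8 in the uninjured and 8 in the injured nerve. The share of all genes in those barcodes is not given, so these numbers are not read against it.

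Higher in NFOs in both libraries were Ldha, Eno1 and Pkm. Ldha had a ratio of 3.83 (1.61 to 7.87) in the uninjured and 10.5 (7.19 to 15.6) in the injured nerve. In injured oligodendrocytes of 1000 to 4000 UMIs Ldha was at 72.9 CPM (33.3 to 138), against 210 CPM in all injured NFOs. Eno1 had ratios of 4.33 (2.97 to 6.14) and 6.82 (5.39 to 8.63), and Pkm of 2.98 (1.99 to 4.32) and 4.04 (3.24 to 5.03). Aldoc was at 191 CPM in uninjured NFOs and 10.1 CPM in uninjured oligodendrocytes, a ratio of 18.9 (10.2 to 33.5), and Tpi1 (2.36) and Pgam1 (2.20) were also past 2-fold in the uninjured nerve, while in the injured nerve their ratios were 1.79 and 1.86. Ldhb was within 2-fold between the stages, with ratios of 1.39 (0.754 to 2.36) and 1.36 (0.640 to 2.63).

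Lower in NFOs in both libraries were the cell-surface carriers Slc2a1 and Slc16a1. Slc16a3, the other cell-surface carrier among the members, had too few UMIs to be compared. Slc2a1 had 0 UMIs in uninjured NFOs against 416 in uninjured oligodendrocytes, 3.15-fold lower with the floor of 3 UMIs (interval of the ratio 0 to 0.393). In the injured nerve it was at 8.53 against 46.0 CPM, a ratio of 0.185 (0.0376 to 0.556). Slc16a1 had 0 against 358 UMIs in the uninjured nerve, 2.71-fold lower with that floor (interval of the ratio 0 to 0.457). In the injured nerve it was at 11.4 against 68.6 CPM, a ratio of 0.166 (0.0446 to 0.433). Pfkfb3 (0.285, 0.0759 to 0.754) and Eno2 (0.401, 0.0799 to 1.24) were lower in NFOs of the injured nerve. Hk1, Pfkl and Dlat were called lower in uninjured NFOs from 1, 3 and 1 UMIs, and their intervals include 1. Depth was not matched between the types, and the median injured NFO had 1258.5 UMIs. In injured oligodendrocytes of 1000 to 4000 UMIs, Slc2a1 was at 0 CPM (0 to 29.9) and Pfkfb3 at 8.10 CPM (0.205 to 45.1). Slc16a1 was at 56.7 CPM (22.8 to 117) there. In uninjured oligodendrocytes of that depth Slc2a1 was at 87.4 CPM (68.6 to 110) and Slc16a1 at 94.5 CPM (74.9 to 118). The part of depth in the ratios between the types was not tested.

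The phosphofructokinase subunits divided the stages in another way. Pfkl made up 92.3% (88.7 to 94.99) of their UMIs in uninjured oligodendrocytes, 41.7% (25.5 to 59.2) in uninjured OPCs and 20% (4.33 to 48.1) in uninjured NFOs, and in the injured nerve 91.8% (84.4 to 96.4), 21.4% (4.66 to 50.8) and 46.7% (31.7 to 62.1). The oligodendrocyte intervals lay above those of both earlier types in each library. The aldolases divided them likewise, with Aldoc at 1.63% of the aldolase UMIs in uninjured oligodendrocytes and at 29.6% in uninjured OPCs and 29.5% in uninjured NFOs.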

How the data were processed

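The authors aligned and counted 10x v2 3' reads with Cell Ranger 1.3 (bcl2fastq 2.17.1.14, genome build mm10), filtered cells on genes found, mitochondrial share and UMIs, typed them in Seurat 4.0.3, and deposited for lineage barcodes the natural log of 1 plus normalized expression, scaled to 10000 UMIs a barcode (NE). An upper limit on UMIs was their step against doublets, and no doublet caller was run here. The table of both libraries together was not used.

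Whole UMIs were obtained by taking the values of a barcode out of the log and dividing them by their minimum, and came out whole within 0.001 in 100% of barcodes. They were summed by type and library. CPM have exact Poisson, shares exact binomial (Clopper-Pearson) and ratios exact conditional 95% intervals, which cover counting error only and were tested on simulated data. Class totals ran from 94130 UMIs (uninjured NFOs) to 4149375 UMIs (uninjured oligodendrocytes), which limits rare genes most in NFOs and OPCs. A class with 0 UMIs was set to a floor of 3 UMIs over the class. No p-values were computed, because each condition has 1 library. Both sample labels name 2 weeks after crush, so the uninjured library was assigned by its title.

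The 31 members and all lists were chosen with earlier results of these data known. All members are counted by role. Full values are given for Ldha, Ldhb, Slc16a1, Slc2a1 and members past 2-fold in oligodendrocytes or NFOs on at least 50 UMIs. Genes of other lists are named by the last criterion, except Pdk3, Eno1b and the hypoxia response genes within 2-fold in oligodendrocytes. Of 31053 gene names 30438 matched GENCODE vM21 (GRCm38), which gave coordinates, counted from 1. Promoters came from RefSeq (GRCm38.p6). Python 3.11.15, numpy 2.4.6, scipy 1.17.1, pandas 2.3.3 and matplotlib 3.10.9 were used. Another 12 settings were tried, and 3 more were added after seeing the data, namely barcodes of at least 8000 UMIs, of 1000 to 8000 UMIs with at least 0.5% Malat1, and with under 0.2% of UMIs from macrophage markers. A result for 1 gene of another list is not reported here.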

Additional observations from a re-analysis of the deposited data

How the results depend on the processing

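No paired analysis was possible because each condition has 1 library, and for the same reason no replicate could be left out. The numbers of members past 2-fold were 8 in oligodendrocytes, 1 in NFOs and 3 in OPCs between the libraries, and 11 (uninjured) and 7 (injured) between NFOs and oligodendrocytes. With at least 200 summed UMIs they were 2, 0, 0, 7 and 2 in that order, since fewer members were tested, and with barcodes thinned to 500 UMIs 0, 0, 0, 2 and 0. In barcodes of 1000 to 8000 UMIs they were 5 in oligodendrocytes, 0 in NFOs, 1 in OPCs and 4 between the types in the injured nerve. With at least 10 summed UMIs they were 7 in NFOs, 8 in OPCs and 12 between the types in the injured nerve. At 1.5-fold they were 2 in NFOs, 5 in OPCs and 17 between the types in the injured nerve. In barcodes of 500 or more genes and no more than 10% mitochondrial UMIs they were 5 in oligodendrocytes and 7 between the types in the uninjured nerve. With 10 CPM added to both levels the number in oligodendrocytes was 3, of which 1 was lower. In NFOs the mean over barcodes gave 2 and barcodes with at least 0.5% Malat1 gave 0. The share of all genes called under each of these other settings is not given beside the numbers. They are therefore not read as results about the members. The Ldhb share, injured minus uninjured oligodendrocytes, was -29.3 percentage points in all barcodes, -50.69 in barcodes of 1000 to 8000 UMIs, -17.78 in thinned barcodes, and -52.85 in barcodes of 1000 to 8000 UMIs with at least 0.5% Malat1. Pfkfb2, at a log2 ratio of -1.44, changed sign to 0.18 in barcodes of 1000 to 8000 UMIs and to 0.58 in those with at least 0.5% Malat1 as well. Over 15 alternatives the log2 ratio in oligodendrocytes stayed on its side of 0 for Ldhb (-2.71 to -0.12, the latter in thinned barcodes), Slc2a1 (-2.77 to -0.97), Slc16a1 (-0.47 to -0.19), Pdk2 (-1.18 to -0.44), Pdk4 (-1.95 to -0.78), Pfkfb3 (0.16 to 1.84) and Eno2 (1.28 to 5.33). Pdk1 (-1.79 to 0.00) kept its sign in 14 of the 15 and was at 0.00 in thinned barcodes, and Ldha, whose interval includes 1 in all barcodes, kept its sign in 11. Where a cause is not given above, the cause was not tested.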

Other observations

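Genes next to the 31 were read from lists of relatives in oligodendrocytes, where 10.0% of all genes were past 2-fold. Of 13 relatives of lactate and pyruvate handling, 8 were compared, 1 was higher and 1 lower. Me1, the cytosolic malic enzyme that makes pyruvate and NADPH, was at 117 CPM in uninjured and 256 CPM in injured oligodendrocytes, a ratio of 2.18 (interval 1.93 to 2.46). Pcx, which carboxylates pyruvate to oxaloacetate, was at 33.0 and 14.3 CPM, a ratio of 0.434 (0.287 to 0.639). Of the 7 pentose phosphate genes, all compared, 0 were higher and 2 were lower. Tkt (transketolase) was at 418 and 203 CPM, a ratio of 0.486 (0.438 to 0.539), and Rpia (ribose 5-phosphate isomerase) at 24.1 and 6.51 CPM, a ratio of 0.270 (0.146 to 0.468). Of 18 other glycolysis genes 4 were compared and 0 were past 2-fold, with a median log2 ratio near 0.

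Of 14 genes of the hypoxia response 11 were compared in oligodendrocytes, 2 were higher and 1 lower, with a median log2 ratio of 0.61 beside 0.05 for all genes. The genes within 2-fold lay on both sides of 1. Intervals were above 1 for Hif1a (1.52), Epas1 (1.69), Mxi1 (1.73) and Ero1l (1.71). They were below 1 for Vegfa (0.544), Ddit4 (0.661) and P4ha1 (0.667), and that of Egln1 (1.08) included 1. Bnip3 and Bnip3l, which mark mitochondria for autophagy, were at 68.7 and 155.5 CPM (ratio 2.26, 1.93 to 2.65) and at 379 and 823 CPM (2.174, 2.03 to 2.33). Ankrd37 was at 10.1 and 4.78 CPM (0.472, 0.219 to 0.933). In NFOs 3 of the 14 genes were compared and 2 were higher. Hif1a, the oxygen-regulated transcription factor, was at 74.4 CPM (7 UMIs) and 202 CPM (71 UMIs), a ratio of 2.71 (1.25 to 6.99), and Mxi1 had 1 uninjured and 53 injured UMIs. The macrophage markers were at 21.3 and 813 CPM in the same NFOs, and their part in these values was not tested. In OPCs 1 gene was compared and was within 2-fold.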
